A study of Mus musculus with 57 samples.

Results

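Cd34, Igfbp5, Tmem119 and Runx3 were 4 of the 24941 genes measured by RNA sequencing in 57 mouse libraries. They were selected on their measured counts, which were higher in Kupffer-niche recruited macrophages (KN-RM, the F4/80-high, Tim4-negative gate) than in the Tim4-positive Kupffer cells sorted from NASH-diet livers in the same set, so their levels in those 4 libraries are a description and carry no test. The population set held 2 libraries per group from C57BL/6J mice. Kupffer cells of the control diet are called healthy here, and the other 5 groups were on the NASH diet, which brings on fatty liver with inflammation. These were Kupffer cells, KN-RM, CD11b-high Ly6C-low and CD11b-high Ly6C-high recruited liver macrophages, and Ly6C-high blood monocytes. How long these mice ate the diet and the ages of all mice are not given in the sources used here. The time course followed Tim4-positive Kupffer cells of C57BL/6J mice at week 0 (control diet, n = 3) and on NASH diet at week 1 (n = 2), week 4 (n = 2), week 10 (n = 3), week 20 (n = 3) and week 30 (n = 4). The LXR set held Tim4-negative KN-RM after 20 weeks of NASH diet from mice that all carried floxed alleles of both LXR genes, sterol-sensing nuclear receptors. Its strain labels read "Clec4f-cre pos LXRaLBRb flox" (n = 3) and "Cre neg LXRaLBRb flox" (n = 3), and Clec4f, which drives the Cre, is a Kupffer cell lectin that KN-RM also make. The whole livers came from mice on CDAHFD, a choline-deficient high-fat diet, for 4 weeks, labelled "Clec4f-cre DTR pos" (n = 12) or "Clec4f-cre DTR neg" (n = 10). DTR is a receptor for diphtheria toxin, and whether toxin was given is not stated in the labels.

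Kupffer cells are the resident macrophages of the liver sinusoid, are seeded before birth and carry the phagocytic receptor Tim4. When they are lost, as in fatty liver inflammation, monocytes from the blood enter the liver, and some settle in the vacant niche and take on Kupffer cell genes while Tim4 stays low. Cd34 is a sialomucin of the cell surface known from blood progenitors, endothelium and fibroblast progenitors. Igfbp5 is a secreted protein that binds insulin-like growth factors and the extracellular matrix. Tmem119 is a membrane protein used as a marker of microglia, the macrophages of the brain. Runx3 is a transcription factor of the RUNX family, best known in cytotoxic T cells, NK cells and dendritic cells.

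The 4 transcripts used lie on 3 chromosomes of mm10. Cd34 (NM_001111059) spans chr1:194938821-194961292 on the plus strand and Igfbp5 (NM_010518) chr1:72858065-72874865 on the minus strand. Runx3 (NM_019732) spans chr4:135120645-135177990 on the plus strand and Tmem119 (NM_146162) chr5:113793729-113800352 on the minus strand. Exons of an antisense gene, Gm16897, overlap exons of Cd34, and the strand setting of the counting is not given, so reads from the 2 genes cannot be told apart. A shorter Cd34 transcript had nearly the same total, 7509 counts against 7870. The difference of 361 counts is 4.59% of the longer transcript's count (95% exact binomial interval 4.14 to 5.07%, counting error only), and the 156 bases that only the longer one has are 5.97% of its length. The choice between the 2 transcripts therefore moves Cd34 levels little.

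RefSeq promoters (GRCm38.p6, the assembly of mm10) were in the reference table for 3 of the 4 genes, with 2 for Runx3. No promoter is shown for Tmem119. The 250 bases before each start are printed for Cd34 and Runx3, with every match to the motifs searched in capitals. Over the sorted cells the group means of Cd34 and Runx3 correlated (r = 0.82), though their order of the populations differed. The Cd34 stretch lies at chr1:194938571-194938820, the distal Runx3 promoter, where the counted transcript starts, at chr4:135120395-135120644, and the proximal one at chr4:135152295-135152544, all on the plus strand and written 5′ to 3′.
Cd34: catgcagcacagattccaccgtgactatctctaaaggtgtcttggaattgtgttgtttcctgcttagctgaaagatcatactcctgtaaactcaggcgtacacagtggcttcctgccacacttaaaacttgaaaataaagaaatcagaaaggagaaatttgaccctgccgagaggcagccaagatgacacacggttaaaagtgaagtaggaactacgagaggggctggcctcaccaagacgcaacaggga
Runx3 distal: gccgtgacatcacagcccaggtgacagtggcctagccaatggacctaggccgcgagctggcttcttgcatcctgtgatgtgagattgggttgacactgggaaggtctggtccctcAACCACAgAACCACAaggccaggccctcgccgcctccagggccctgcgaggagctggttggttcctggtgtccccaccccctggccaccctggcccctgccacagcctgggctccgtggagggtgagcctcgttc
Runx3 proximal: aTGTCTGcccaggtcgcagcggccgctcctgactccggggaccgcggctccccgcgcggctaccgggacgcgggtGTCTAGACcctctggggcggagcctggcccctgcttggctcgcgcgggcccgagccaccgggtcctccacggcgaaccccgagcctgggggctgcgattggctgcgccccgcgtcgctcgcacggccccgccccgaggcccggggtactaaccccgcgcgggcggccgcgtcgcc
The distal Runx3 promoter holds AACCACA, the reverse complement of the RUNX letters TGTGGTT, 2 times in a row with 1 base between them, at 135 and 127 bases before the start. Of 32851 promoters of 300 bases in the table, 5.27% hold TGTGGTT on either strand. The proximal promoter holds the SMAD letters GTCTAGAC once, at 175 bases before the start, as 0.213% of promoters do, and CAGACA once on the reverse strand, as 21.0% do. The search, on both strands of the 300 bases, also took the RUNX letters TGTGGTC, the ETS letters AGAGGAAGT and the ETS letters CAGGAAGT. It further took the AP-1 letters TGACTCA, the E-box letters CACGTG, the nuclear receptor letters AGGTCA and the TATA box letters TATAAA. None of these was found in the promoters of the 3 genes, and the promoters of Cd34 and Igfbp5 held none of the letters searched. The proximal Runx3 promoter was the richest in G and C (78.8%, with 38 CpG in its 250 bases), and that of Cd34 the poorest (46.4%, 6 CpG). These matches are letters in a window and show no binding.

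Total counts per library, in units of 1e6 reads, ran from 12.4 to 22.7 in the population set, 10.5 to 27.0 in the time course, 2.32 to 5.09 in the LXR set and 5.39 to 9.94 in whole liver. Levels are CPM, each gene's share of its library's counts, scaled between libraries by TMM, and a gene is called where its adjusted p in edgeR's quasi-likelihood test is under 0.05. In the population set the gates matched their markers. Timd4, which encodes Tim4, was at 5.33 and 12.3 CPM in KN-RM against 160.1 and 256.2 CPM in NASH Kupffer cells, and Clec4f was at 2596 and 3244 CPM in KN-RM against 38.2 and 46.0 CPM in Ly6C-low liver macrophages. In the LXR set, the library labelled Cre-positive replicate 2 held 325.8 CPM of Timd4, replicate 3 held 98.5 CPM and replicate 1 held 17.1 CPM, all above every Cre-negative library (3.49, 6.02 and 16.8 CPM), although the gate was Tim4-negative. In whole liver, 4 of the 22 livers stood apart over all genes, with a median correlation to the other livers of 0.933 to 0.946 against at least 0.968 in the other 18. Calls in the LXR set are also given without Cre-positive replicate 2 or 3, and whole liver results without the 4 livers that stood apart. In sorted cells and whole tissue alike, more cells that express a gene and more RNA per cell cannot be told apart.

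In the population set, the 4 genes were below 3 CPM in healthy Kupffer cells, and the order of the populations was shared by Cd34 and Tmem119 but not by Igfbp5 or Runx3. In KN-RM, Cd34 was at 36.4 and 35.0 CPM, against 7.06 and 6.11 CPM in NASH Kupffer cells and 1.00 and 0.933 CPM in healthy Kupffer cells. Igfbp5 was at 39.5 and 35.4 CPM in KN-RM, 5.87 and 6.11 CPM in NASH Kupffer cells and 2.69 and 2.37 CPM in healthy ones. Tmem119 was at 51.4 and 61.1 CPM in KN-RM, 8.01 and 14.9 CPM in NASH Kupffer cells and 0.625 and 0.717 CPM in healthy ones. The 2 KN-RM libraries agreed closely for each gene, and the NASH Kupffer cells lay between KN-RM and healthy Kupffer cells. Runx3 was at 44.4 and 48.6 CPM in KN-RM, 12.1 and 15.1 CPM in NASH Kupffer cells and 1.75 and 2.15 CPM in healthy ones. The ratio of KN-RM to NASH Kupffer cells was thus 5.42 for Cd34, 6.25 for Igfbp5, 4.92 for Tmem119 and 3.43 for Runx3. This is the difference that chose the genes. Over all genes with a mean of at least 1 CPM in these libraries, 22.8% had both KN-RM libraries above both NASH Kupffer cell libraries. Per length, in TPM as deposited, the most abundant of the 4 in KN-RM was Tmem119 at 34.0 ± 4.27 TPM (SD, n = 2). Cd34 (17.1 ± 0.404 TPM) and Runx3 (15.0 ± 1.01 TPM) followed, and Igfbp5 was lowest at 8.03 ± 0.576 TPM.

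**Figure D1:**
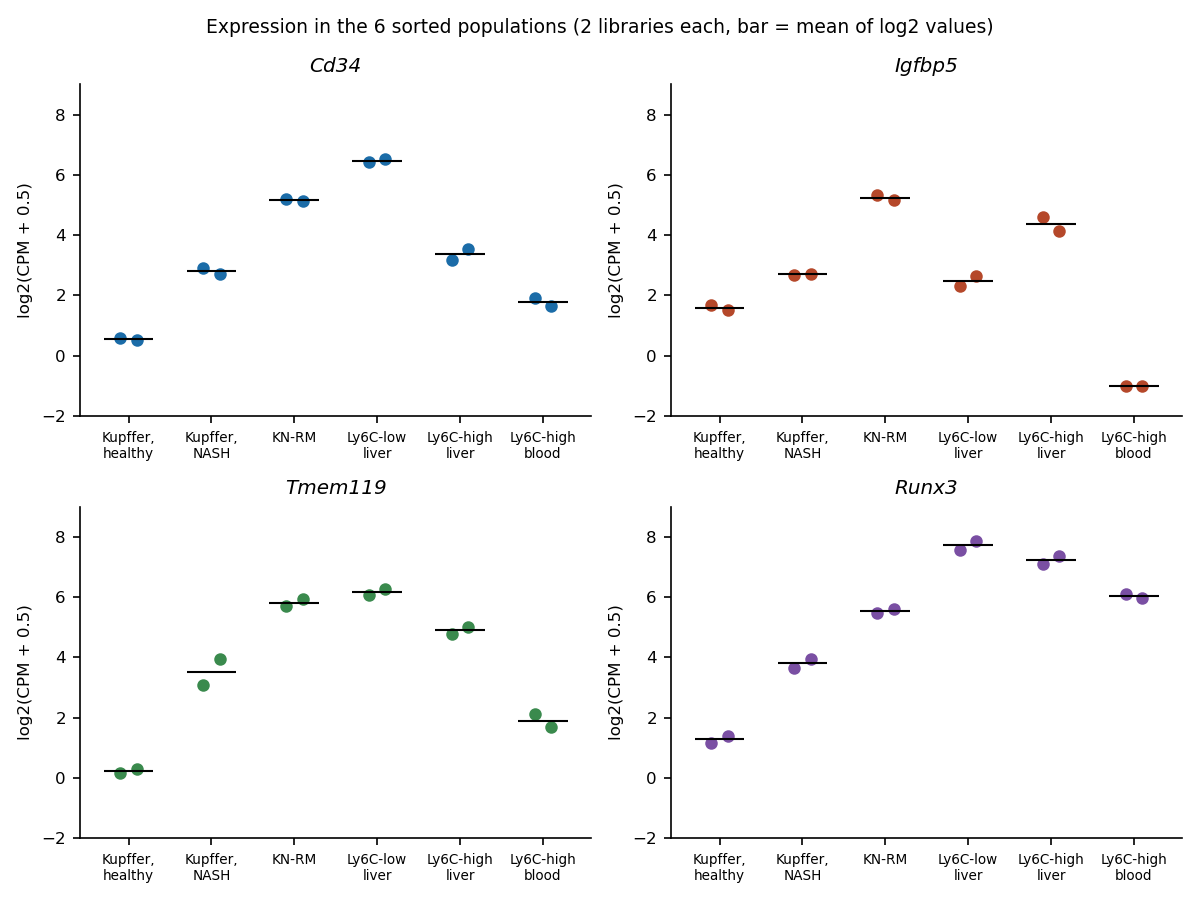
Levels of the 4 genes in the 6 sorted populations as log2(CPM + 0.5), 1 point per library and a bar at the mean of the log values. Igfbp5 is highest in KN-RM and has 0 counts in blood, while the other 3 genes are highest in the Ly6C-low liver macrophages.

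KN-RM were the highest of the 6 populations only for Igfbp5. Cd34 was at 85.2 and 92.0 CPM in Ly6C-low liver macrophages, 2.48 times its mean in KN-RM, and Tmem119 was at 66.9 and 77.6 CPM, 1.29 times. Runx3 was at 189.9 and 231.9 CPM in Ly6C-low and at 137.7 and 166.3 CPM in Ly6C-high liver macrophages, and blood monocytes at 67.7 and 62.6 CPM also lay above KN-RM. Igfbp5 ran the other way, with 4.47 and 5.81 CPM in Ly6C-low and 24.0 and 17.1 CPM in Ly6C-high liver macrophages. In the order of means, each neighbouring pair of populations was free of overlap for each gene, though with 2 libraries a group the smallest steps were narrow. Apart from KN-RM above NASH Kupffer cells (22.8%), the share of all genes free of overlap was not counted for these pairs, so this is a description. Igfbp5 in NASH Kupffer cells was 1.17 times its mean in Ly6C-low macrophages, and Tmem119 in Ly6C-low macrophages 1.29 times its mean in KN-RM.

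The step from blood monocyte to Ly6C-high liver macrophage was tested in 8 libraries that played no part in choosing the genes, fitted without KN-RM and NASH Kupffer cells. All 4 genes were higher in the liver cells, where 27.2% of 14254 genes were called higher and 42.4% were called in either direction. Igfbp5 had 0 counts in both blood libraries and 702 counts over the 2 Ly6C-high liver libraries. Set against a floor of 3 counts over the blood group, its level was at least 238-fold higher in the liver cells (adjusted p = 2.86e-06 in edgeR). Tmem119 was at 3.83 and 2.75 CPM in blood against 27.2 and 32.0 CPM in the liver, a log2 difference of 3.20 ± 0.21 (SE, adjusted p = 3.19e-06 in edgeR). Neither pair of groups overlapped. Cd34 was at 3.28 and 2.68 CPM in blood against 8.65 and 11.1 CPM in the liver, a log2 difference of 1.77 ± 0.21 (adjusted p = 0.000105 in edgeR). Runx3 had the smallest difference, 1.28 ± 0.16 (adjusted p = 0.000196 in edgeR), with 67.7 and 62.6 CPM in blood against 137.7 and 166.3 CPM in the liver.

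Genes of other cells moved with this step. Of 12 stellate cell and fibroblast markers, 12 were called higher in Ly6C-high liver cells than in blood, where their summed level was 16.5 to 22.3 CPM and 8 of them, Col1a1, Dcn and Des among them, had 0 counts. In the liver cells the sum was 702.6 to 842.9 CPM. All 12 sinusoidal endothelial markers (sum 221 to 319.1 CPM in blood, 1404 to 1458 CPM in the liver cells, with 5 at 0 in blood) and 10 of the 11 T and NK cell markers tested (9.52 to 10.7 CPM against 91.1 to 120.2 CPM) were called higher too. So were 11 of 11 vascular endothelial, 8 of 8 B cell, 8 of 12 dendritic cell, 8 of 10 hepatocyte, 10 of 12 Kupffer cell identity and 2 of 2 mast cell markers, 4 of 6 cholangiocyte markers (1 lower) and 3 of 8 neutrophil markers (1 lower). Of the monocyte-derived cell markers, 8 of 12 were lower. Alb, the hepatocyte albumin gene, had 0 counts in blood. Their part in the differences of the 4 genes was not tested. Of the pathways, 10 of 13 genes of the IGF axis, 10 of 14 microglia genes and 17 of 23 TGF-beta and BMP genes were called higher and none lower, against 11 higher and 1 lower of 14 progenitor genes and 6 higher and 2 lower of 15 RUNX partners and targets. Each list leaves out the gene among the 4 that stands for it.

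Between the 2 recruited liver populations the genes parted. Cd34 and Tmem119 were higher and Igfbp5 lower in Ly6C-low than in Ly6C-high macrophages, and Runx3 was not called. Across all genes, 21.7% of 14254 were called, 9.41% higher and 12.2% lower. Cd34 differed most, by 3.08 ± 0.19 on the log2 scale (adjusted p = 1.44e-05 in edgeR), an 8.44-fold difference. For Tmem119 the log2 difference was 1.21 ± 0.18 (adjusted p = 0.0018 in edgeR). Igfbp5 fell by 2.09 on the log2 scale (SE 0.28, adjusted p = 0.00145 in edgeR). Runx3, at 210.9 ± 29.7 against 152.0 ± 20.3 CPM (SD, n = 2), differed by 0.39 ± 0.16 with an adjusted p of 0.115 in edgeR. Dendritic cell markers moved with Cd34 and Tmem119, with 8 of 12 called higher in Ly6C-low cells and none lower (sum 556.5 to 595.2 CPM against 142.8 to 166.5 CPM). Markers of stellate cells (3 of 12 called lower, none higher) and sinusoidal endothelium (9 of 12 lower, none higher) moved with Igfbp5. So did 5 of 11 vascular endothelial, 10 of 12 monocyte-derived, 6 of 8 neutrophil and 8 of 10 hepatocyte markers, the last with sums of 778.3 to 964.7 CPM in Ly6C-low and 2459 to 5314 CPM in Ly6C-high cells. No T and NK or B cell marker was called in edgeR, Kupffer cell identity genes were split (2 higher, 2 lower), as were cholangiocyte markers (1 each), and Kit was the 1 mast cell marker called. Their part was not tested.

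The pathways around the genes were also read in this comparison. Of the IGF axis, the growth factors, their receptors and their binding proteins without Igfbp5, 8 of 13 tested genes were lower in Ly6C-low cells and none higher, with a median log2 difference of -1.41 against -0.03 over all genes. The binding proteins Igfbp7 (60.2 ± 13.4 against 150.7 ± 15.9 CPM, log2 -1.41) and Igfbp3 (3.73 ± 1.23 against 12.4 ± 0.0606 CPM, log2 -1.83) were among them. Of the microglia genes without Tmem119, 6 of 14 were higher and none lower, with a median of 0.55. They included the receptor Gpr34 (19.6 ± 3.76 against 3.41 ± 0.343 CPM), the TGF-beta receptor Tgfbr1 (884.8 ± 34.1 against 384.5 ± 60.1 CPM) and Olfml3 (68.0 ± 1.39 against 18.5 ± 1.85 CPM). Of the TGF-beta and BMP genes, 3 of 23 were higher and 2 lower, near the shares of 9.41% and 12.2% over all genes. Ltbp3, which binds latent TGF-beta, was at 121.2 ± 3.32 against 32.1 ± 0.0522 CPM, while the ligand Tgfb1 was lower at 579.1 ± 71.2 against 877.1 ± 2.99 CPM. Of the progenitor genes without Cd34, 2 of 14 were higher, the stem cell factor receptor Kit (66.9 ± 18.8 against 16.9 ± 2.16 CPM) and the endothelial protein C receptor Procr, and 2 lower. Of the RUNX partners and targets, 3 of 15 were higher, among them the corepressor Cbfa2t3 and the coreceptor Cd4, and 1, the corepressor Tle3, was lower.

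Against healthy Kupffer cells, Ly6C-low macrophages were higher in all 4 genes (20.5% of 14254 genes were called higher, 38.8% in either direction) and Ly6C-high macrophages likewise (25.7% higher, 45.0% in either direction). These comparisons and the one with blood below share the healthy Kupffer cell libraries. For Runx3 the log2 difference was 6.74 ± 0.23 in Ly6C-low and 6.35 ± 0.22 in Ly6C-high macrophages. Tmem119 differed by 6.73 ± 0.27 and 5.52 ± 0.27, and Cd34 by 6.49 ± 0.24 and 3.41 ± 0.25, each with an adjusted p of at most 2.93e-06 in edgeR. Igfbp5 was 8.49-fold higher in Ly6C-high macrophages (log2 3.09 ± 0.31, adjusted p = 5.19e-05 in edgeR). In Ly6C-low macrophages its difference was 1.00 ± 0.31 (adjusted p = 0.0296 in edgeR), and that call was lost without either healthy Kupffer cell library (log2 1.08 without replicate 1 and 0.93 without replicate 2), without Ly6C-low replicate 2 (0.78), in a fit of the 2 groups alone and with limma on TPM. Blood monocytes were higher than healthy Kupffer cells in Runx3 (5.08 ± 0.22), Tmem119 (2.32 ± 0.30) and Cd34 (1.64 ± 0.27), where 25.9% of genes were called higher, 32.3% lower and 58.2% in either direction. Igfbp5 was lower in blood. It was at least 29.6-fold higher in the Kupffer cells, against the floor of 3 counts (adjusted p = 2.74e-05 in edgeR). The control-diet Kupffer cells of the time course held more Cd34, Tmem119 and Runx3 than these healthy ones. Their Cd34, at 4.29, 2.39 and 3.81 CPM, overlapped with blood (3.28 and 2.68 CPM). Their Tmem119 (1.99, 2.15 and 1.76 CPM) and Runx3 (6.32, 3.28 and 8.14 CPM) stayed below blood. The sizes of the differences above thus hold for the population set, and no test was made across sets.

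**Figure D2:**
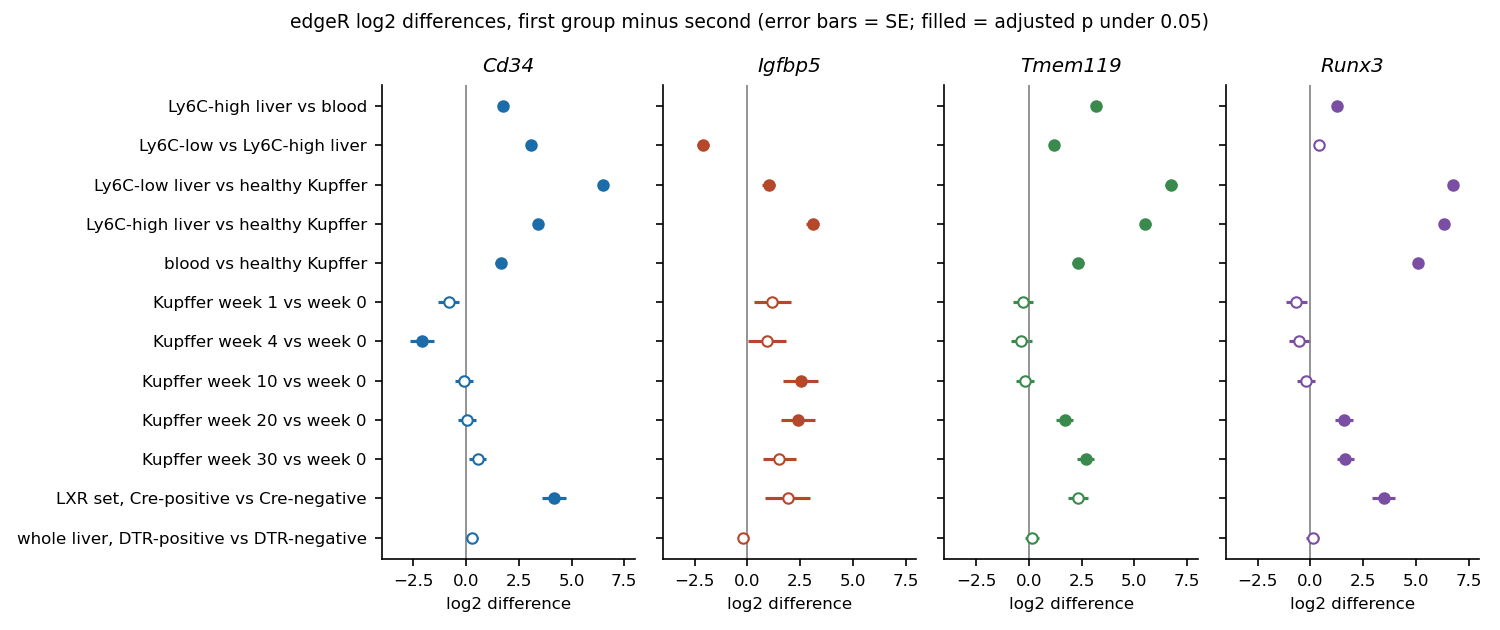
Log2 differences of the 4 genes from edgeR, first group minus second, with standard errors, and filled points where the adjusted p is under 0.05. The comparisons of Igfbp5 with blood are left out, since blood had 0 counts, and Igfbp5 is the gene that lies on the other side of 0 between Ly6C-low and Ly6C-high macrophages.

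Over the means of the 14 groups of sorted cells, Cd34, Tmem119 and Runx3 followed each other and Igfbp5 stood off. The Pearson correlation of log2(CPM + 0.5) was 0.92 between Cd34 and Tmem119, 0.86 between Tmem119 and Runx3, and 0.82 between Cd34 and Runx3. With Igfbp5 it was 0.54 for Tmem119, 0.43 for Cd34 and 0.21 for Runx3. The groups share sets and gates and are not independent. KN-RM and NASH Kupffer cells of the population set, whose difference chose the genes, are among them. These values therefore describe the 14 means and carry no test. Among 12206 genes ranked in the same way, with the 4 themselves left out, the most alike to Cd34 were Tnfsf8 (r = 0.95), Grap2 (0.918) and B3gnt7 (0.913). For Tmem119 they were B3gnt7 (0.971), Kcnn4 (0.958) and Jag1 (0.94), and for Runx3 Osm (0.968), Kcna3 (0.967) and Nfatc2 (0.967). For Igfbp5 they were Bcam (0.937), Fmo2 (0.921) and Efemp1 (0.902). B3gnt7, a glycosyltransferase gene, was thus named for 2 of the 4, at 7.57 ± 0.327 CPM in KN-RM, 13.7 ± 0.655 CPM in Ly6C-low macrophages and 0.0359 ± 0.0507 CPM in healthy Kupffer cells. Grap2, an adaptor of antigen receptor signalling, was at 20.2 ± 4.72 CPM in KN-RM and 94.4 ± 16.5 CPM in Ly6C-low macrophages. The potassium channels followed the same course, Kcnn4 with 35.2 ± 0.831 and 100.4 ± 8.59 CPM and Kcna3 with 14.5 ± 1.22 and 41.2 ± 0.643 CPM. Bcam, a laminin receptor, was at 9.23 ± 3.58 CPM in KN-RM, 2.95 ± 0.0718 CPM in Ly6C-low and 8.01 ± 2.20 CPM in Ly6C-high macrophages, and Efemp1, which encodes a matrix glycoprotein, was at 7.64 ± 1.34, 4.67 ± 2.15 and 12.4 ± 1.12 CPM.

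In Tim4-positive Kupffer cells, Tmem119 and Runx3 rose late on the diet, while Cd34 was lowest at week 4 and Igfbp5 scattered. Tmem119 was at 1.99, 2.15 and 1.76 CPM at week 0, 1.99 and 1.24 CPM at week 1, 1.46 and 1.52 CPM at week 4, and 0.582, 1.59 and 2.82 CPM at week 10. At week 20 its levels were 8.70, 4.73 and 5.51 CPM, and at week 30 they were 14.4, 9.91, 10.7 and 15.9 CPM. No library of weeks 20 and 30 overlapped with the earlier ones, and the week 30 libraries all lay above those of week 20. Runx3 was at 6.32, 3.28 and 8.14 CPM at week 0 and between 3.03 and 6.66 CPM at weeks 1 to 10. It reached 25.9, 14.9 and 11.95 CPM at week 20 and 24.5, 7.58, 17.6 and 24.3 CPM at week 30. Of these 7 libraries, only replicate 2 of week 30 lay within the range of week 0.

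At week 30, 2 of the 4 genes were higher than at week 0, where 15.5% of 14552 genes were called higher and 30.5% in either direction. Tmem119 rose by 2.70 ± 0.40 on the log2 scale (adjusted p = 0.000109 in edgeR), a 6.52-fold change, and Runx3 by 1.65 ± 0.40 (adjusted p = 0.00563 in edgeR), a 3.14-fold change. At week 20 the calls were Tmem119 (1.69 ± 0.41, adjusted p = 0.00466 in edgeR), Runx3 (1.58 ± 0.42, adjusted p = 0.00892 in edgeR) and Igfbp5, 3 of 4 against 18.2% of genes called higher, 16.6% lower and 34.7% in either direction. Without week 20 replicate 1 the Runx3 call was lost (log2 1.19, adjusted p = 0.0524 in edgeR). At week 1 none of the 4 was called in edgeR, DESeq2 or limma, and none had an unadjusted p under 0.05 in edgeR, where 9.42% of all genes were called higher, 6.56% lower and 16.0% in either direction. Over weeks 1 to 30, 3 of the 4 rose with each doubling of the weeks, against 10.7% of 14470 genes that rose and 22.1% that changed. The slope was 0.65 ± 0.13 for Tmem119 (adjusted p = 0.00284 in edgeR), 0.54 ± 0.11 for Runx3 (adjusted p = 0.00202 in edgeR) and 0.33 ± 0.11 for Cd34 (adjusted p = 0.0408 in edgeR). The slope of Igfbp5 was 0.18 ± 0.15 (adjusted p = 0.425 in edgeR).

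**Figure D3:**
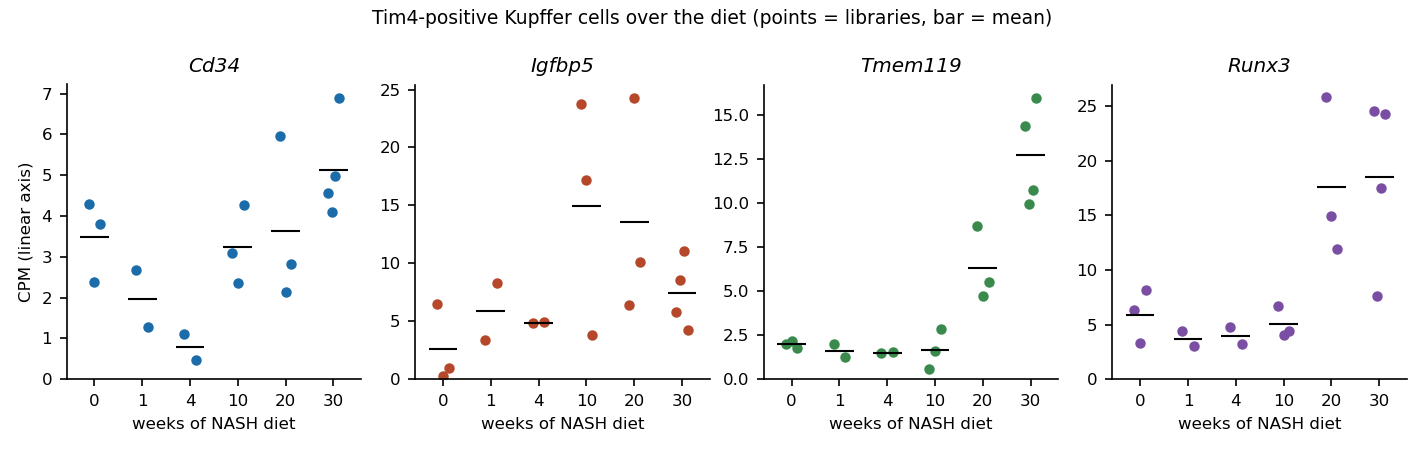
CPM of the 4 genes in Tim4-positive Kupffer cells by weeks of NASH diet, 1 point per library and a bar at the mean, on linear axes with the weeks as equally spaced categories. Tmem119 and Runx3 are higher at weeks 20 and 30 than before, Cd34 is lowest at week 4, and the Igfbp5 libraries of 1 week differ widely.

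Cd34 was at 4.29, 2.39 and 3.81 CPM at week 0 and at 1.10 and 0.473 CPM at week 4, which rest on 12 and 5 counts. Its fall by 2.10 on the log2 scale (SE 0.57, adjusted p = 0.0314 in edgeR) was the 1 call among the 4 genes at week 4, where 2.99% of genes were called lower, 5.55% higher and 8.54% in either direction. That call was lost without week 0 replicate 1 (log2 -1.93) or 3 (-2.03), without week 4 replicate 1 (-2.86) or 2 (-1.62), and in a fit of the 2 weeks alone. Healthy Kupffer cells of the population set, at 1.00 and 0.933 CPM of Cd34, lay within the range of week 4. At week 30, Cd34 was at 4.57, 4.10, 4.98 and 6.90 CPM, 0.56 ± 0.40 above week 0 on the log2 scale (adjusted p = 0.307 in edgeR). Its positive slope over weeks 1 to 30 thus starts from low levels at weeks 1 and 4, and the slope's call was lost without 1 library in 7 of 14 cases, replicate 2 of week 1 giving the largest adjusted p (0.121 in edgeR).

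Igfbp5 at week 0 was at 6.46, 0.239 and 0.996 CPM, with replicate 1 well above the other 2. At week 10 it was at 23.8, 17.2 and 3.84 CPM, at week 20 at 6.40, 24.2 and 10.1 CPM, and at week 30 at 5.80, 8.54, 11.1 and 4.22 CPM. The week 30 libraries overlap with week 0 through that replicate. It was called at week 10 (log2 2.53 ± 0.83, adjusted p = 0.0424 in edgeR), where 11.5% of genes were called higher, 7.63% lower and 19.1% in either direction, and at week 20 (2.39 ± 0.82, adjusted p = 0.0334 in edgeR). At week 30 it was not (1.5 ± 0.78, adjusted p = 0.155 in edgeR). Without week 0 replicate 1 the differences were 3.24, 3.00, 4.60, 4.46 and 3.57 at weeks 1, 4, 10, 20 and 30, and Igfbp5 was then also called at week 1 (adjusted p = 0.0288 in edgeR) and week 30 (adjusted p = 0.00718 in edgeR). Without week 0 replicate 2 or 3 both calls were lost (log2 2.01 and 2.15 at week 10, 1.87 and 2.02 at week 20). The week 10 call was also lost without its replicate 1 (2.02) or 2 (2.42), in a fit of the 2 weeks alone (2.53, adjusted p = 0.123 in edgeR) and with summed transcripts (2.52, adjusted p = 0.052 in edgeR). The week 20 call was also lost without its replicate 2 (1.65), in a fit of the 2 weeks alone (2.39, adjusted p = 0.0896 in edgeR) and with limma on TPM (1.22, adjusted p = 0.0509).

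Markers of other cells moved over the same weeks. Timd4 was at 863 ± 68.2 CPM at week 0, 228.3 ± 174.3 CPM at week 20 and 159.5 ± 90.3 CPM at week 30, and 7 of 12 Kupffer cell identity genes fell and none rose by week 30. Of 12 monocyte-derived cell markers 4 rose and 2 fell, and Ccr2, the chemokine receptor that lets monocytes leave the marrow, was at 21.2 ± 8.16 CPM at week 0 and 40.5 ± 13.1 CPM at week 30. Stellate cell markers rose in 10 of 12 cases (sum 50.7 to 87.0 CPM at week 0, 184.2 to 459.1 CPM at week 30). At weeks 10 and 20, 9 of 12 were called higher than at week 0 and none lower. Replicate 2 was highest in their sum at week 20 (384.9 CPM), as in Igfbp5. At week 30 the highest in their sum, replicate 4 (459.1 CPM), was the lowest in Igfbp5. Of the 11 T and NK cell markers tested, the cells best known for Runx3, 1 rose at week 20, Cd3e of the T cell receptor complex (7.31 ± 1.94 to 19.8 ± 13.9 CPM), and at week 30 none rose and 1 fell. The median log2 change of the list was 0.50 at week 20 and 0.57 at week 30. Its summed level was 60.8, 53.7 and 111.4 CPM at week 0, 203.1, 119.5 and 62.5 CPM at week 20, and 112.2, 50.3, 149.1 and 121.1 CPM at week 30. The libraries of week 20 stood in the same order in this sum as in Runx3. They did so too in the summed monocyte-derived markers, at 933.4, 820.3 and 692.2 CPM. At week 30, replicate 2 was lowest in the T and NK sum and in Runx3, while replicate 3 was highest in that sum but not in Runx3. In the monocyte-derived sum, replicate 3 was the lowest of week 30 (781.4 CPM, against 785.5 CPM in replicate 2). Sinusoidal endothelial markers fell in 10 of 12 cases, and of 11 vascular endothelial markers, a cell type known for Cd34, 3 rose and 6 fell. Hepatocyte markers rose in 5 of 10 cases and cholangiocyte markers in 1 of 6, while 3 of 12 dendritic cell, 1 of 8 B cell and 1 of 2 mast cell markers fell, and of 6 neutrophil markers 1 rose and 1 fell. In summed sinusoidal endothelial markers the libraries of weeks 0, 1 and 20 stood in the same order as in Igfbp5. Those of weeks 4, 10 and 30 did not. The sums were 2546, 1174 and 1245 CPM at week 0 and 920, 1642 and 992.9 CPM at week 20. The part of the other cells in the changes of the 4 genes was not tested.

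The microglia genes without Tmem119 had 9 of 14 members higher and 3 lower at week 30, with a median log2 change of 1.24 against 0 over all genes. Trem2, a lipid receptor, rose from 35.6 ± 17.5 to 573.6 ± 76.1 CPM. The fractalkine receptor Cx3cr1 rose from 15.0 ± 3.098 to 239 ± 86.6 CPM and Olfml3 from 7.91 ± 1.51 to 97.7 ± 18.4 CPM. Of 15 RUNX partners and targets 2 rose, Runx1 from 60.4 ± 7.29 to 112.4 ± 2.68 CPM and Runx2 from 5.94 ± 3.28 to 14.3 ± 4.05 CPM, and 2 fell, of which the shared DNA-binding partner Cbfb went from 139.1 ± 2.22 to 86.9 ± 7.65 CPM. Over all genes 15.5% were called higher and 15.0% lower at week 30, so the RUNX list lay near those shares. The TGF-beta and BMP genes had 7 of 23 higher and 4 lower. Ltbp3 rose from 4.99 ± 0.196 to 86.3 ± 18.6 CPM and the ligand Tgfb3 from 3.92 ± 1.12 to 31.5 ± 8.29 CPM, while the BMP receptor Bmpr1a fell from 41.9 ± 8.77 to 3.34 ± 0.852 CPM. The IGF axis had 5 of 14 higher, among them the scavenging receptor Igf2r (99.5 ± 25.8 to 296 ± 22.4 CPM), and 3 lower, among them Igf1 (779.3 ± 52.5 to 470.9 ± 59.9 CPM). The progenitor genes had 3 of 14 higher and 7 lower, the latter with Cd164, an adhesion sialomucin (1066 ± 103.9 to 421.8 ± 31.8 CPM).

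In the LXR set, the Cre-negative libraries carried the KN-RM label but were low in Cd34, Runx3 and Tmem119, while Igfbp5 scattered. Cd34 was at 3.49, 1.25 and 1.65 CPM, which rest on 10, 5 and 6 counts. Runx3 was at 5.93, 13.04 and 5.49 CPM and Tmem119 at 6.28, 4.52 and 7.96 CPM. The levels of these 3 genes lay below the KN-RM of the population set. None of the 4 genes had all 3 Cre-negative libraries above all 3 libraries of 20-week Kupffer cells, as 25.9% of genes with a mean of at least 1 CPM had. Ccr2 was at 48.9, 25.8 and 45.9 CPM in these libraries against 169 and 216.4 CPM in the KN-RM of the population set. Genotype, set and depth differ between the 2 sets and cannot be told apart, and the diet time of the population set is not known here.

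**Figure D4:**
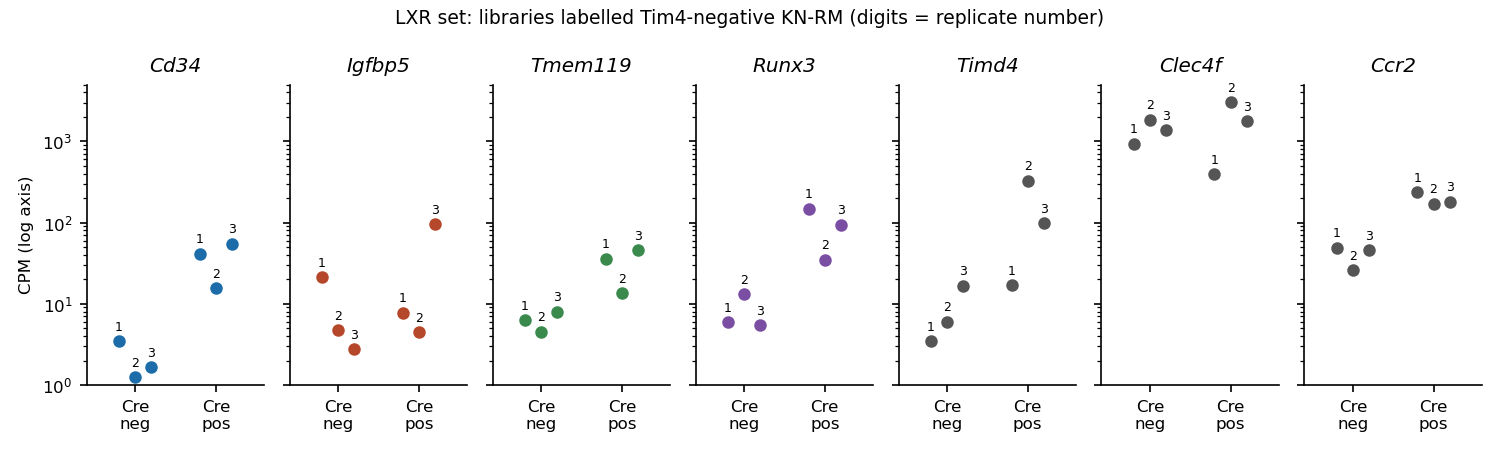
CPM on a log axis in the 6 libraries of the LXR set for the 4 genes and for Timd4, Clec4f and Ccr2, each point marked with its replicate number. Cd34, Tmem119, Runx3 and Ccr2 are higher in each library labelled Cre-positive than in each labelled Cre-negative, Igfbp5 is high in 1 library of each label, and Timd4 is highest in Cre-positive replicate 2.

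The libraries labelled Cre-positive had more of 3 of the genes. Cd34 was at 41.4, 15.6 and 55.0 CPM, Tmem119 at 35.8, 13.5 and 45.5 CPM and Runx3 at 147.5, 34.9 and 93.7 CPM. Each was above every Cre-negative library, a separation whose share over all genes was not counted, and replicate 2 was the lowest each time. These 3 genes also had every Cre-positive library above every library of 20-week Kupffer cells, as 28.3% of genes with a mean of at least 1 CPM had. Igfbp5 was at 7.72, 4.50 and 94.7 CPM against 21.3, 4.77 and 2.75 CPM in Cre-negative libraries, so the groups overlapped and 1 library held most of its counts. Of the 4 genes 2 were called higher, where 0.174% of 11480 genes were called higher (20 genes) and 0.0348% lower (4 genes). The log2 difference was 4.15 ± 0.57 for Cd34 (adjusted p = 0.0198 in edgeR), 3.47 ± 0.54 for Runx3 (adjusted p = 0.0374 in edgeR), 2.32 ± 0.47 for Tmem119 (adjusted p = 0.0838 in edgeR) and 1.90 ± 1.05 for Igfbp5 (adjusted p = 0.737 in edgeR).

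Both calls were lost with summed transcripts (adjusted p = 0.0523 for Cd34 and 0.0944 for Runx3 in edgeR), with limma on TPM (0.129 and 0.166), and without some single libraries. Without Cre-positive replicate 2, the library with the most Timd4, 3 genes were called, with Tmem119 at 2.71 (adjusted p = 0.00781 in edgeR) among them. Without Cre-positive replicate 3, or without Cre-negative replicate 1 or 3, none was called in edgeR, and without Cre-negative replicate 2 only Runx3 was. The log2 difference of Cd34 stayed between 3.75 and 4.67 and that of Runx3 between 2.92 and 3.99 when single libraries were left out, while that of Igfbp5 ran from -0.68, without Cre-positive replicate 3, to 3.24. For the targeted genes, reads from all exons were counted, floxed or not, so loss of the floxed exons was not measured apart. Nr1h3 (LXR alpha) was at 185.3, 482.8 and 311.7 CPM in the libraries labelled Cre-positive and at 244.3, 297.5 and 313 CPM in the Cre-negative ones. Nr1h2 (LXR beta) was at 60.5, 88.2 and 67.3 CPM against 50.6, 35.1 and 37.4 CPM. Each Cre-positive library thus lay above each Cre-negative one in Nr1h2, while the groups overlapped in Nr1h3. Whether the labels are right was not tested.

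Other genes went with the 3. Ccr2 was at 235.6, 169.8 and 181.1 CPM in the libraries labelled Cre-positive, above the Cre-negative ones. Runx2 was called higher (113.9 ± 48.8 against 12.99 ± 3.86 CPM, adjusted p = 0.016 in edgeR), 1 of 12 tested RUNX partners and targets. So was Spn, the sialomucin CD43 (62.8 ± 40.1 against 7.14 ± 2.91 CPM), 1 of 9 tested progenitor genes. No gene of the IGF axis (8 tested) or of the TGF-beta and BMP list (20 tested) was called in edgeR. The monocyte-derived markers summed to 2542, 1624 and 1989 CPM in Cre-positive and 1547, 1567 and 1382 CPM in Cre-negative libraries, with 1 of 8 tested called higher. Ly6c2 and Chil3 had 0 counts in all Cre-negative libraries. T and NK cell markers summed to 8.57 to 22.1 CPM in Cre-positive and 6.59 to 19.3 CPM in Cre-negative libraries. Kupffer cell identity genes summed to 1681, 11220 and 5682 CPM in Cre-positive replicates 1, 2 and 3 and to 3419, 4529 and 3810 CPM in the Cre-negative ones, so that replicate 2, the lowest Cre-positive library in Cd34, Tmem119 and Runx3, was the highest in this sum. In edgeR no marker of the other liver or blood cell lists was called, except that of 7 vascular endothelial markers 1, Plvap, was lower (9.68 ± 5.02 against 63.1 ± 29.0 CPM). The part of monocyte-derived cells and Kupffer cells in these differences was not tested.

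In whole liver the 4 genes were at low levels and did not pass the test between DTR-positive and DTR-negative mice. Cd34 ran from 1.54 through a median of 5.62 to 8.93 CPM in the 10 DTR-negative livers and from 0.843 through 7.47 to 12.2 CPM in the 12 DTR-positive livers. Igfbp5 ran from 7.27 through 13.9 to 31.7 CPM and from 5.81 through 11.1 to 28.2 CPM. Tmem119 ran from 0.881 through 3.60 to 5.95 CPM and from 0.211 through 4.43 to 7.06 CPM. The groups overlapped over most of their range for each gene. Runx3 ran from 0.827 through 2.52 to 2.93 CPM and from 0.211 through 3.05 to 3.92 CPM. None of the 4 genes and none of 12682 genes was called in edgeR (0.0%), DESeq2 or limma, and at an unadjusted p under 0.05 edgeR had 477 genes and none of the 4. The log2 difference was 0.29 ± 0.30 for Cd34, -0.19 ± 0.27 for Igfbp5, 0.15 ± 0.32 for Tmem119 and 0.11 ± 0.32 for Runx3.

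**Figure D5:**
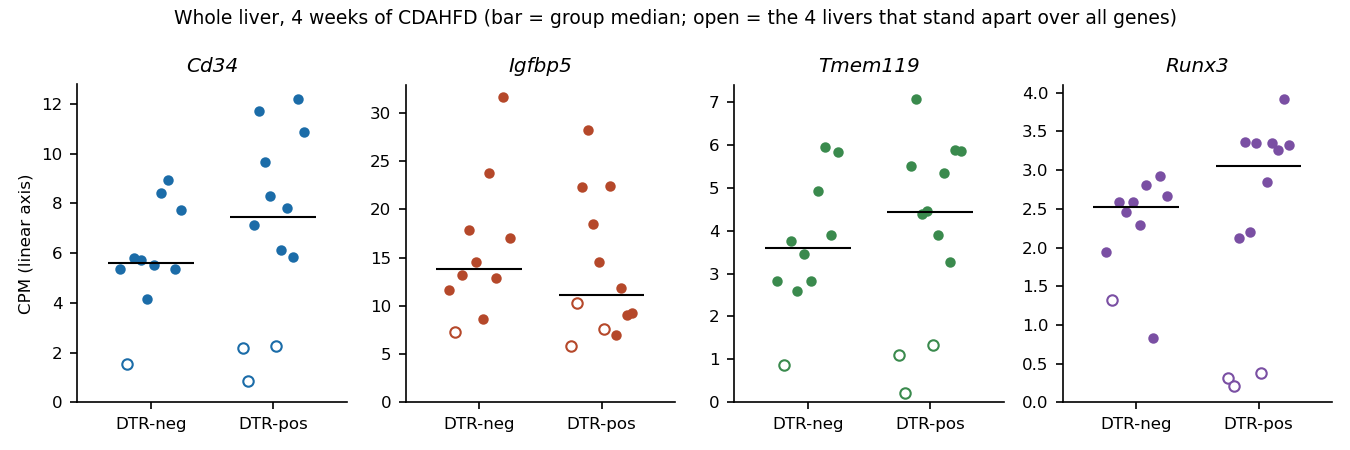
CPM of the 4 genes in whole liver after 4 weeks of CDAHFD by DTR label, on linear axes, with 1 point per liver, a bar at the group median and open points for the 4 livers that stand apart over all genes. The open points are the lowest for Cd34 and Tmem119, and the 2 labels overlap for each gene.

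The 4 livers that stood apart, 1 DTR-negative and 3 DTR-positive, were low in these genes. Their Cd34 was 0.843 to 2.28 CPM against 4.17 to 12.2 CPM in the other 18, and their Tmem119 0.211 to 1.33 CPM against 2.59 to 7.06 CPM. They also held less Ccr2 (1.54 to 4.24 against 9.49 to 25.0 CPM) and less of the collagen gene Col1a1 (46.5 to 65.4 against 155.1 to 350.2 CPM), and more of the hepatocyte gene Alb (a median of 125500 against 55910 CPM). Without them the log2 difference of Cd34 was 0.50 (adjusted p = 0.388 in edgeR), and none of the 4 genes was called in edgeR. Medians in the DTR-positive and DTR-negative livers that remained were 8.29 and 5.73 CPM for Cd34 and 5.34 and 3.75 CPM for Tmem119. For Runx3 they were 3.321 and 2.585 CPM, and for Igfbp5 14.51 and 14.53 CPM.

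Within the 18 other livers, Cd34 and Tmem119 varied together. The cut that set the 4 livers apart was chosen after seeing the data. The permutation sets a pair against shuffled livers and not against other gene pairs, of which some named below were as close. Pearson's r was 0.82 (permutation p = 6e-05, adjusted over 6 pairs 0.00036) and Spearman's rho 0.83 (permutation p = 8e-05, adjusted 0.00048). Without the 2 livers farthest from the median in Cd34 r was 0.84, and it was 0.78 among the 9 DTR-negative and 0.79 among the 9 DTR-positive livers. The other 5 pairs had r between -0.06 and 0.18, with adjusted permutation p of 0.891. Runx3 had a rho of 0.43 against Cd34 (adjusted permutation p = 0.234) and of 0.37 against Tmem119 (adjusted permutation p = 0.264). It rested on only 5 to 31 counts per liver in the 18, and the effect of such low counts on its pairs was not tested. Other genes were ranked by their likeness over all 22 livers, the 4 that stood apart included and the 4 genes themselves left out. For Cd34 the closest were Trim35 (r = 0.963, and 0.891 over the 18), Adamts2 (0.962 and 0.851) and Cpxm1 (0.951 and 0.794). For Tmem119 they were Adamts2 (0.948 and 0.802), Lum (0.946 and 0.773) and Cd9 (0.944 and 0.797). Adamts2, which processes procollagen, was named for both, and Lum encodes a matrix proteoglycan. For Igfbp5 they were Bcam (0.761 and 0.64), Slx4 (0.739 and 0.623) and Flii (0.716 and 0.607), Bcam being named for it in sorted cells as well. For Runx3 they were Ptgds (0.887 and 0.588), Tnfaip3 (0.882 and 0.252) and Sorl1 (0.858 and 0.546).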

How the data were processed

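Each table held 57 value columns, all matched to a library by title. Per the file headers, the authors deposited raw counts and TPM for 40458 RefSeq transcripts of mm10, made with HOMER's analyzeRepeats from reads in exons. STAR, HOMER and DESeq2 are named, without versions, in the submitters' processing notes. Strand setting, trimming and filters are not given in the sources used here. The transcript with the highest total was kept per symbol (24941 genes). Count tests used R 4.3.3 with edgeR 4.0.16 (TMM, genes kept by filterByExpr at a count of 10 and a total of 15, glmQLFTest, two-sided, Benjamini-Hochberg over all genes), in separate fits of 8 population, 17 time course, 14 slope, 6 LXR and 22 whole liver libraries. CPM were scaled over the 35 sorted-cell libraries together and over whole liver apart. The alternatives were other size factors, no filter, summed transcripts, the replicate number as a block, DESeq2 1.42.0, limma 3.58.1 on log2(TPM + 1) of genes at 1 TPM or more, 2-group fits and leaving out libraries.

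The genes and lists were chosen with earlier results of these data known. Named besides the 4 genes were the 3 most alike to each, up to 4 of each list with the lowest adjusted p per comparison, and label checks. Lists were 5 pathways and markers of 12 cell types. The labels number replicates without naming separate animals, so each p-value covers only variation among these libraries, which may be technical.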

Additional observations from a re-analysis of the deposited data

How the results depend on the processing

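No tested result of the population set other than the Igfbp5 call against healthy Kupffer cells changed its side of the threshold under the alternatives run. In 2-group fits the week 4 and week 10 counts of called genes among the 4 were each 0. The week 10 count was also 0 with summed transcripts and with the replicate block (Igfbp5 log2 2.48, adjusted p = 0.0606), and the LXR count was 0 with summed transcripts and with limma on TPM. When 1 library was left out, the number of the 4 genes called ran from 0 to 1 at weeks 1, 4 and 10 and from 0 to 3 in the LXR set. The ratio of KN-RM to NASH Kupffer cells was 5.90 for Cd34 and 6.82 for Igfbp5 in deposited TPM, and for Tmem119 it ran from 3.78 to 7.02 without single libraries.

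Uncalled differences that changed sign were Cd34 at week 20 with limma (-0.16) and, in whole liver with the replicate block, Tmem119 (-0.06) and Runx3 (-0.12). Without single libraries, log2 values ran from -0.67 to 0.03 for Tmem119 at week 1, from -0.34 to 0.11 for Cd34, -0.84 to 0.21 for Tmem119 and -0.49 to 0.09 for Runx3 at week 10, from -0.50 to 0.33 for Cd34 at week 20 and from -0.68 to 3.24 for Igfbp5 in the LXR set. The cause was not tested.

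The number of all genes called in the LXR set, 24 in edgeR, was 273 without a filter, 12 with summed transcripts, 112 with the replicate block, 230 in DESeq2, 2 in limma and 0 to 81 without single libraries. It was 1492 instead of 2325 at week 1 and 1228 instead of 2786 at week 10 in 2-group fits, and 1741 instead of 3203 for the slope with the block, which also ended the slope call of Cd34 (log2 0.29, adjusted p = 0.107 in edgeR) and gave a call for Tmem119 in the LXR set (2.20, adjusted p = 0.0233 in edgeR). Besides these and the week 10 call of Igfbp5, the block changed no call of the 4 genes. Without single libraries it fell to 1289 of 3088 between Ly6C-low and Ly6C-high cells, 1068 at week 1, 538 of 1243 at week 4, 1597 at week 10 and 1967 for the slope. Same-numbered replicates did not deviate together throughout. Their correlation exceeded 0.1 in 14 of 30 pairs in the population set, 11 of 36 in the time course, 1 of 3 in the LXR set and 5 of 10 in whole liver. A library correlated best with its own number in 10 of 12, 10 of 16, 2 of 6 and 2 of 20 cases. Pairs with different numbers exceeded 0.1 in 4 of 30, 10 of 83, 2 of 6 and 56 of 110 cases. Shared numbers thus went with likeness more often in the population set and the time course, though not in all pairs. In the LXR set and whole liver they did not. In the population set, the 2 libraries of a group deviate from their mean by exact opposites. Its different-number correlations (-0.63 to 0.152) are thus its same-number ones (-0.152 to 0.63) with the sign turned, and no separate comparison. The main fits did not take the numbers as pairs, since the labels do not name animals, and the block was run as an alternative. Cd34 rests on at most 10 counts in each Cre-negative library of the LXR set, the set with the lowest depth.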
